A study of Homo sapiens with 16 samples.

Results

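SLC35A4, PTP4A1, UCP2, PNRC2, C7orf31, BCL2L11, SAT1 and C19orf48 are 8 genes whose coding sequences gained ribosomes during endoplasmic reticulum (ER) stress in HEK293T cells, a human embryonic kidney line with SV40 large T antigen. They were chosen with measured values in view. All 8 are on the study's list of 78 transcripts whose ribosome-protected fragments (RPFs) differed more than 2-fold between stressed and unstressed cells, and 7 of them, all but C19orf48, are also on its shorter list of transcripts with upstream open reading frames (uORFs) mapped before. Each gene stands here for 1 transcript, so the 8 members are 8 of 19044 transcripts that could be matched between the assays and 8 of 10970 that had enough counts to be tested. All 8 passed that filter on low counts, and all 8 also passed it when the Tm libraries were left out.

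The treatments lasted 1 hr and were tunicamycin (Tm, 1 µg/ml), Tm and ISRIB (200 nM) together, or ISRIB alone, beside untreated cells. Tm blocks N-linked glycosylation and so loads the ER with misfolded proteins. ISRIB is a small molecule that blunts the translational effects of phosphorylated eIF2α. Lysates were split in 2, one portion for Ribo-Seq, which counts RPFs over coding sequences, and one for mRNA-Seq. With biological replicates a and b for each of the 4 treatments there are 16 libraries. The cells are 1 immortalized line, and its identity was not checked against marker genes.

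Under ER stress the kinase PERK phosphorylates eIF2α, which lowers the supply of the initiator tRNA complex and slows most initiation. A uORF in a 5′ UTR usually captures scanning ribosomes and keeps them from the coding sequence downstream. On some mRNAs this brake is relieved when eIF2α is phosphorylated, because more ribosomes scan past the inhibitory start codon, and ATF4 is the best known case. PPP1R15A (GADD34), the regulatory subunit that directs a phosphatase to eIF2α, and the transcription factors ATF5 and DDIT3 (CHOP) are other long-known targets of this kind.

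The start codons that precede each coding sequence were read from annotated transcripts (GENCODE v29 on GRCh38). Those used have a coding sequence, stop codon included, that is 20 codons longer than the counted length. All 8 transcripts have at least 1 upstream AUG and 7 have at least 2. The count depends on the annotated transcript used, which gives 1 to 4 upstream AUGs for C7orf31 and 2 to 5 for PNRC2. Among 18645 annotated protein-coding genes with a 5′ UTR, 53.1% have at least 1 and 32.3% at least 2 (motif ATG on the transcript strand). Together the 8 transcripts hold 41 upstream AUGs. Of these, 24 have a purine 3 bases before the AUG, 16 have a G right after it and 11 have both, the context that favors initiation. Since 7 members were listed for having uORFs, these counts describe the group and are not evidence about it. C19orf48 was not listed for uORFs, and its transcript holds 8 upstream AUGs. The 5′ UTRs run from 179 to 1107 nt, and 7 of the 8 exceed the median of 186 nt over all genes.

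**Figure D1:**
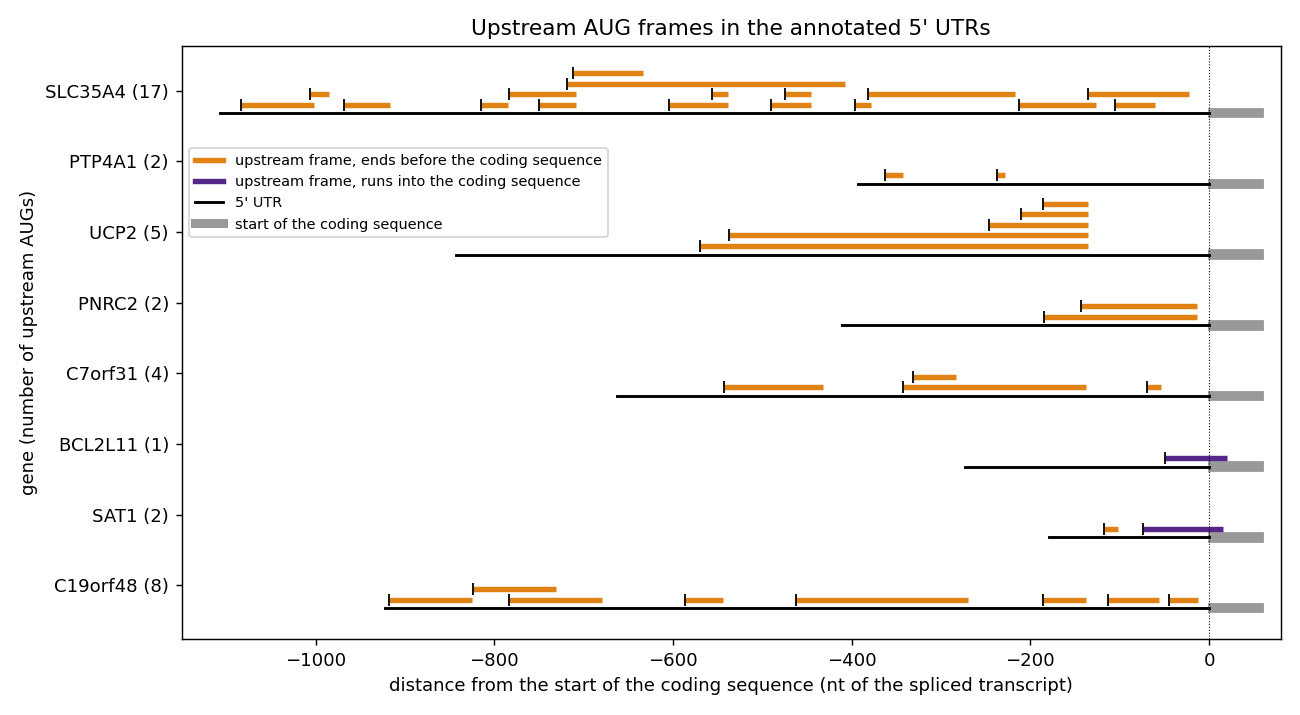
Upstream AUG frames of the 8 transcripts, drawn to scale by distance from the start of the coding sequence in nt of the spliced transcript. Ticks mark the 41 upstream AUGs and bars the frames they open; 39 frames end before the coding sequence, and 1 each in BCL2L11 and SAT1 runs into it.

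SLC35A4 (chr5:140564456-140569103, plus strand) belongs to the SLC35 family of nucleotide sugar transporters, which the paper places in the ER or Golgi. It has the most upstream AUGs, with 17 in a 5′ UTR of 1107 nt. Only 1.01% of genes have at least 17. All 17 frames end before the coding sequence, and the longest, of 103 codons, opens 719 nt before it with both a purine and a G in the favored places. Its start is shown with that of the last upstream AUG, which lies 105 nt before the coding sequence. The 3 annotated transcripts with this coding sequence hold from 11 to 20 upstream AUGs. In the lines below the capitals mark the upstream AUG (ATG in DNA letters) and, where a whole frame is shown, its stop codon, and all lines read 5′ to 3′ along the spliced transcript. The window of the longest frame spans a splice junction, between chr5:140564832 and chr5:140565875.
SLC35A4, start of the longest frame: tcggcggggaagATGgcggatgacaaggat
SLC35A4, last upstream AUG, chr5:140567053-140567082, plus strand: ttctctctggcaATGttccacggcttctcc

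PTP4A1 (chr6:63576488-63581462, plus strand) encodes a small tyrosine phosphatase of the PRL family. Its frames have 6 and 2 codons, the latter the shortest of the group, and both are shown whole. They open 363 and 237 nt before the coding sequence, and the other annotated 5′ UTR with this coding sequence brings the count to 17. SAT1 (chrX:23783173-23786226, plus strand) encodes the spermidine/spermine acetyltransferase of polyamine breakdown. Its first frame has 4 codons and ends 102 nt before the coding sequence. C7orf31 (chr7:25135735-25180300, minus strand), a gene of little known function, has 4 upstream AUGs, of which the last opens a frame of 4 codons 69 nt before the coding sequence.
PTP4A1, first frame, chr6:63576518-63576538, plus strand: ATGcagacaagtgaactgTAG
PTP4A1, second frame, chr6:63576644-63576652, plus strand: ATGgggTAA
SAT1, first frame, chrX:23783235-23783249, plus strand: ATGgtgccagccTGA
C7orf31, last frame, chr7:25179692-25179706, minus strand: ATGaagagtctcTAA

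In 2 members the last upstream frame overlaps the start of the coding sequence, the layout that is best known from ATF4. BCL2L11 (chr2:111120929-111168447, plus strand) encodes BIM, a proapoptotic BH3-only protein, and has 1 upstream AUG, 49 nt before the coding sequence, that opens a frame of 22 codons. The second AUG of SAT1 lies 74 nt before the coding sequence and opens a frame of 29 codons. Neither AUG has a purine or a G in the favored places. Their windows are shown for that reason.
BCL2L11, overlapping frame, chr2:111121141-111121170, plus strand: ttgttcccccaaATGtctgactctgactct
SAT1, overlapping frame, chrX:23783266-23783295, plus strand: cccgggagacgaATGaggaaccacctcctc

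UCP2 (chr11:73974667-73983307, minus strand), a mitochondrial inner membrane carrier of the uncoupling protein family, and PNRC2 (chr1:23959812-23963462, plus strand), a coregulator that also takes part in mRNA decay, differ from the others in that all their upstream AUGs share a frame and a stop codon. In UCP2 the 5 AUGs open nested frames of 144, 133, 36, 24 and 16 codons that end 135 nt before the coding sequence. In PNRC2 the 2 AUGs open frames of 56 and 42 codons that end 14 nt before it. C19orf48 (chr19:50797705-50804717, minus strand), an open reading frame of little known function, has 8 frames of 10 to 63 codons that all end before its coding sequence. The starts of the first UCP2 frame and of the longest C19orf48 frame both have a purine and a G in the favored places.
UCP2, first AUG, chr11:73983017-73983046, minus strand: gtaaacgcggtgATGggacgcacggaaacg
PNRC2, first AUG, chr1:23960956-23960985, plus strand: gaggagactcagATGttggcctcagctcct
C19orf48, start of the longest frame, chr19:50798893-50798922, minus strand: gtggctgcagccATGgctaggaaagcgctg

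On matched transcripts the Ribo-Seq libraries hold 3001612 to 11469150 counts and the mRNA-Seq libraries 8466193 to 24499266, and both Tm libraries are the smallest of Ribo-Seq. A level in CPM is a count divided by the TMM-scaled size of its library and put on a common scale within the assay, so each is relative to the other transcripts, and total translation was not measured. The 2 mRNA-Seq libraries labelled ISRIB stood apart from each other. Over 7963 transcripts with at least 10 CPM in every mRNA-Seq library, the root mean square log2 difference between these 2 replicates was 0.246, against 0.128 to 0.137 in the other 3 treatments. ISRIB replicate a differed by only 0.114 to 0.142 from the 4 mRNA-Seq libraries of cells given Tm, and replicate b by 0.252 to 0.325. From untreated replicates a and b, ISRIB replicate a differed by 0.201 and 0.231, and replicate b by 0.184 and 0.244. These values cannot tell which ISRIB library is atypical. The members' tested changes in mRNA and efficiency that rest on ISRIB replicate a are also given without it, where ISRIB mRNA is 1 library that is assumed to vary like the other treatments.

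Translational efficiency, the footprint CPM divided by the mRNA CPM of the same lysate, compares genes without regard to length because both assays were counted over the same codons. In untreated cells, efficiency ranged 197-fold over the 8 members, from 0.0356 ± 0.000938 (SD, n = 2) for C19orf48 to 7.02 ± 0.797 for SAT1, with a median of 0.3. The median of all tested transcripts was 1.02, and 90% of them lay between 0.264 and 4.67. By this measure the group did not start from a common level. C19orf48, at 0.0349 in a and 0.0362 in b, was at the 0.2 percentile of all transcripts in both lysates. SAT1, at 7.58 and 6.46, was at the 98.0 and 97.1 percentiles. Counts were listed for 77614 transcripts in mRNA-Seq and 31848 in Ribo-Seq. In untreated replicate a, matched transcripts held 11724251 of 37170669 mRNA-Seq counts and 7966904 of 8330380 Ribo-Seq counts. Reads of a gene may be divided among isoforms differently in the assays. That would shift its efficiency level and was not tested.

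SLC35A4 came next above C19orf48, at 0.102 and 0.14, followed by C7orf31 at 0.241 and 0.239. PTP4A1 was at 0.267 and 0.281, and PNRC2 at 0.376 and 0.274, so the ranges of these last 2 genes overlapped and their order was not resolved. BCL2L11, at 0.79 and 0.951, and UCP2, at 0.988 and 1.08, were close to the median of all transcripts. Between neighbors in this order, PTP4A1 and PNRC2 were the only pair whose ranges overlapped. Ranges of 2 lysates that lie apart do not settle an order, and C7orf31 rested on only 12 and 16 RPF counts.

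**Figure D2:**
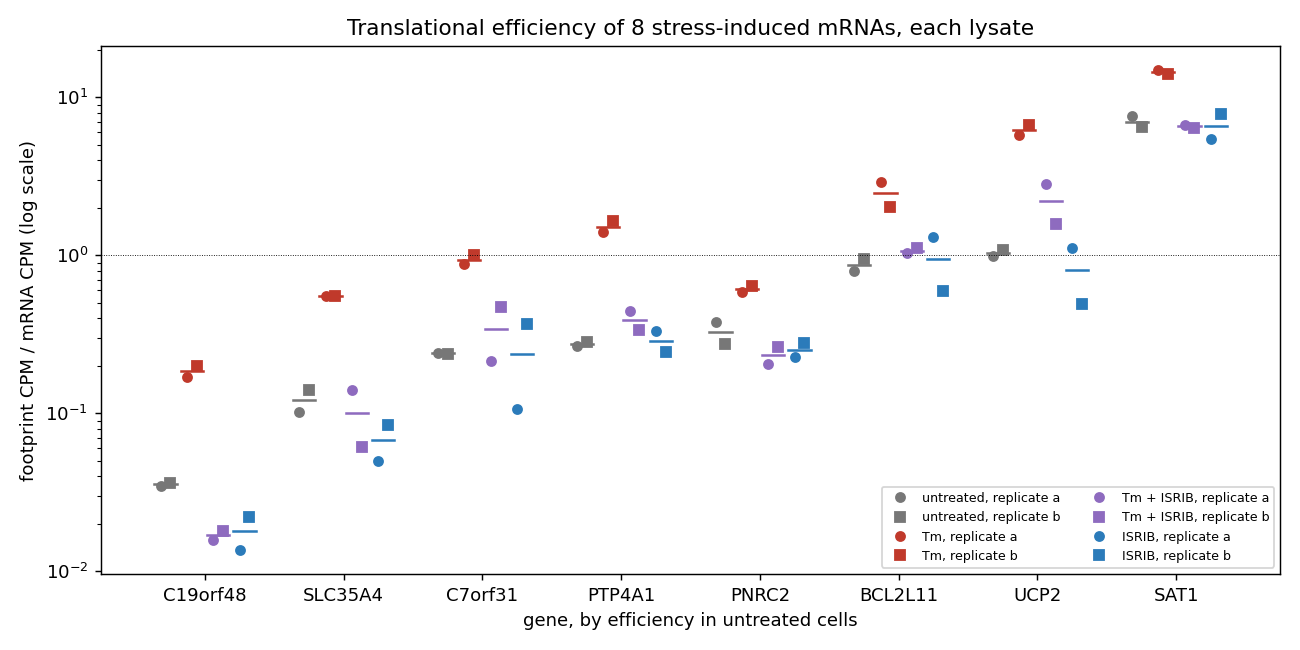
Efficiency (footprint CPM over mRNA CPM, log scale) of the 8 genes in each lysate, with genes ordered by their mean in untreated cells; symbols are replicates and short lines the mean of 2. Both Tm lysates lie above the 6 others for all 8 genes, which were chosen on Tm footprints. The levels of the genes span from 0.0356 for C19orf48 to 7.02 for SAT1 in untreated cells.

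Tm against untreated cells is the contrast that chose the members, so their values are description and no test of them is given. Of the 10970 tested transcripts, 34 (0.31%) were more than 2-fold higher in RPFs at an adjusted p under 0.1 (edgeR). All 8 members were above 2-fold, a count by fold change alone that follows from their choice and is not a share of the 34. SAT1 had the lowest log2 difference at 1.18 and C19orf48 the highest at 2.59. Around the threshold, CPS1 lay just inside at 1.01 and ZNF672 just outside at 0.99.

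SLC35A4 had 1.74 and 2.31 RPF CPM in untreated cells (14 and 26 counts) and 8.09 and 8.77 in Tm (35 and 27 counts). C19orf48 had 1.99 and 1.78 RPF CPM in untreated cells (16 and 20 counts) and 11.1 and 11.7 in Tm (48 and 36 counts). Both were low in footprints before stress. PTP4A1 went from 19 and 21.4 RPF CPM to 66.1 and 83.5 in Tm, UCP2 from 11.8 and 9.6 to 30.1 and 31.8, and PNRC2 from 13.6 and 9.51 to 31.2 and 33.1. C7orf31 was at 1.49 and 1.42 in untreated cells and 4.16 and 3.9 in Tm. BCL2L11 had 4.23 and 4.8 RPF CPM in untreated cells and 13.2 and 11 in Tm, and SAT1 had 90.1 and 75.8 and then 184 and 191. The members were chosen on these footprints, so the rises themselves are not evidence about the group.

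The mRNA of the members did not share a direction in Tm. UCP2 mRNA was lower in Tm (5.2 and 4.74 CPM) than in untreated cells (12 and 8.9 CPM), a log2 difference of -1.08 (SE 0.37). PTP4A1 mRNA was also lower, at 47.4 and 50.8 CPM against 71.3 and 76.2, a log2 difference of -0.58 (SE 0.20), and C7orf31 mRNA differed by -0.51 (SE 0.18). In all of these more footprints stood on less message, so the log2 difference in efficiency exceeded that in RPFs, at 2.62 (SE 0.40) for UCP2, 2.45 (SE 0.26) for PTP4A1 and 1.98 (SE 0.49) for C7orf31. PNRC2 was the opposite case. Its mRNA was at 53.6 and 52 CPM in Tm and 36.1 and 34.7 in untreated cells, a log2 difference of 0.58 (SE 0.12), and its difference of 1.50 in RPFs left 0.93 (SE 0.21) in efficiency, the lowest of the 8.

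The mRNA differences of the other 4 genes were between -0.14 for SLC35A4 and 0.23 for C19orf48, and their efficiency differences were 2.15 (SE 0.31) for SLC35A4, 2.37 (SE 0.28) for C19orf48, 1.47 (SE 0.33) for BCL2L11 and 1.04 (SE 0.20) for SAT1. In Tm the order of the genes changed in the middle: PTP4A1 reached 1.4 and 1.64 in efficiency and UCP2 5.78 and 6.71, while PNRC2 reached only 0.583 and 0.637. C19orf48, at 0.17 and 0.198, remained the lowest in Tm and lay at the 1.7 and 3.1 percentiles of all transcripts. SAT1, at 14.9 and 14, remained the highest. The distance between the 2 genes was 78.9-fold in Tm.

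**Figure D3:**
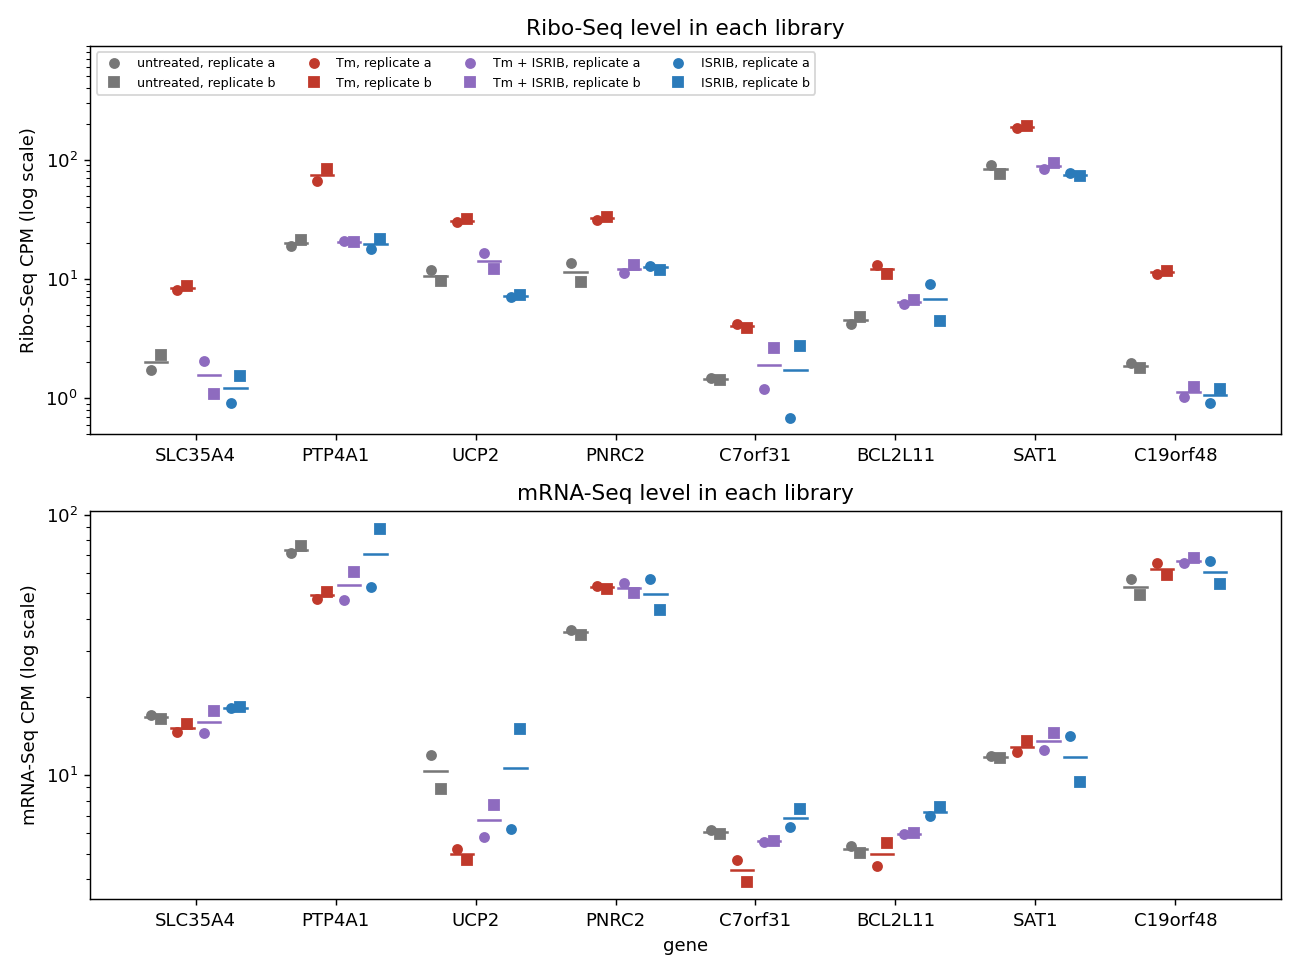
Footprint level (upper panel) and mRNA level (lower panel) of the 8 genes in each library, in TMM-scaled CPM on a log scale; symbols are replicates and short lines the mean of 2. In the lower panel the mRNA of UCP2 is at 6.25 CPM in ISRIB replicate a and 15.1 CPM in ISRIB replicate b.

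Tm + ISRIB against ISRIB asks what Tm does when ISRIB is present, and none of its libraries took part in choosing the members. Of the 10970 transcripts, 147 (1.34%) passed an adjusted p of 0.1 in RPFs by edgeR's quasi-likelihood test, 80 higher and 67 lower, and 1216 (11.1%) had an unadjusted p under 0.05. Of the 8 members, 1 passed. That was UCP2, with 7.02 and 7.4 RPF CPM in ISRIB (31 and 43 counts) and 16.4 and 12.1 in Tm + ISRIB (96 and 78 counts). The ranges did not overlap, and UCP2 RPFs rose 1.95-fold (log2 0.97, SE 0.22, adjusted p = 0.024, edgeR). The adjusted p was 0.21 without ISRIB replicate a, 0.41 without ISRIB replicate b and 0.62 without Tm + ISRIB replicate a, with log2 changes of 0.94, 1.01 and 0.74. Over all 10970 transcripts the same omissions left 2, 1 and 0 calls.

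The other 7 members did not pass in RPFs. SAT1 had 77 and 73.3 RPF CPM in ISRIB and 83.8 and 93.6 in Tm + ISRIB, ranges that did not overlap, with a log2 difference of 0.24 (SE 0.10, adjusted p = 0.33, edgeR). UCP2 and SAT1 were the only 2 members with both Tm + ISRIB libraries above both ISRIB libraries, which held for 21.3% of all transcripts. PTP4A1, at 17.7 and 21.5 CPM in ISRIB and 20.8 and 20.4 in Tm + ISRIB, differed by 0.06 (SE 0.16), and PNRC2, at 12.9 and 12 and then 11.3 and 13.1, by -0.02 (SE 0.20).

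SLC35A4, C7orf31 and C19orf48 had between 3 and 17 RPF counts in each library of this contrast. They differed by 0.28 (SE 0.54), 0.08 (SE 0.52) and 0.08 (SE 0.56). At this depth even changes well above these errors could fail to pass, so no change is excluded for these genes. BCL2L11 had 9.05 and 4.47 RPF CPM in the ISRIB replicates, which bracketed its 6.14 and 6.65 in Tm + ISRIB, and differed by -0.03 (SE 0.29). The median log2 difference of the 8 members in RPFs was 0.08, beside -0.00 over all tested transcripts. Among 32 other transcripts of the study's list that were higher in Tm here, the median was 0.73 and 6 passed the test. Those 32 were chosen on Tm too, and the difference between the lists was not tested.

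**Figure D4:**
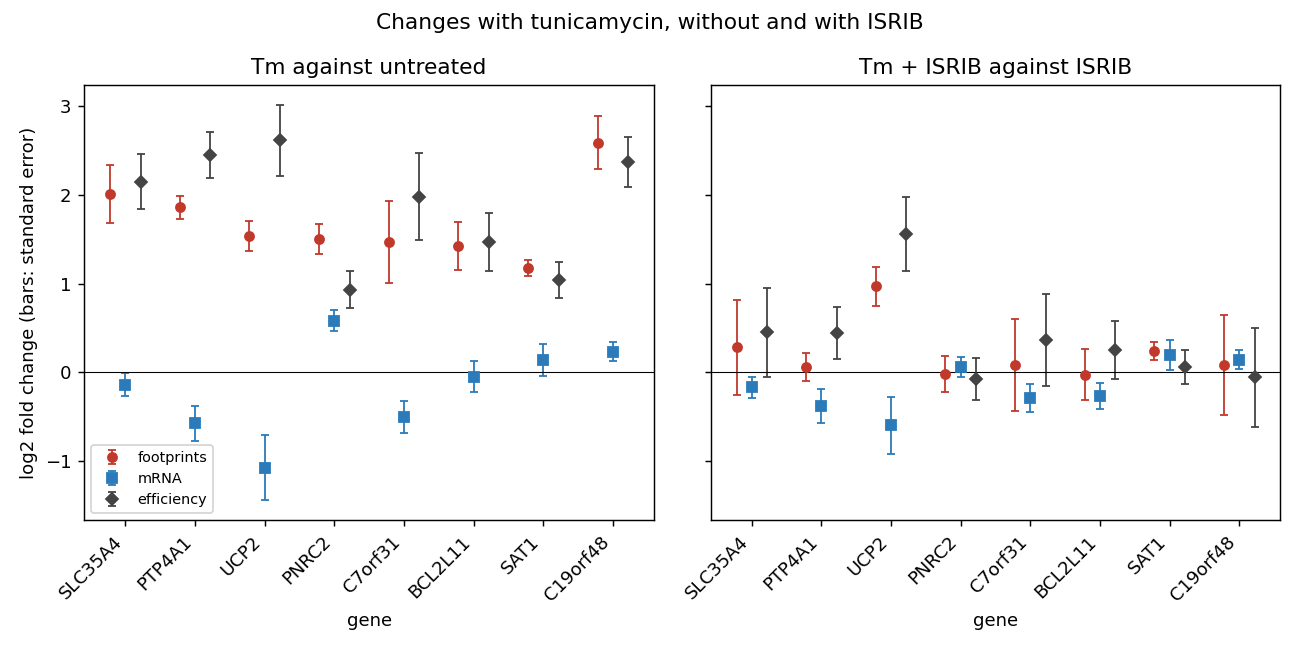
Log2 fold changes of footprints, mRNA and efficiency with Tm in the absence (left panel) and presence (right panel) of ISRIB, from fits over 2 replicates a treatment; bars are standard errors. On the left the efficiency change runs from 0.93 for PNRC2 to 2.62 for UCP2, and on the right UCP2, at 0.97 in footprints, is the only gene that passed the test.

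In efficiency, 129 transcripts (1.18%) passed in the same contrast and 0 of the 8 members did by edgeR, with 1 member at an unadjusted p under 0.05, as were 1574 of all transcripts (14.3%). That member was UCP2, with efficiencies of 1.12 and 0.49 in ISRIB and 2.83 and 1.57 in Tm + ISRIB, which did not overlap. Its log2 difference was 1.56 (SE 0.42, adjusted p = 0.11, edgeR). With the Ribo-Seq and mRNA-Seq libraries of each lysate joined as a replicate block it was 1.61 (adjusted p = 0.053, edgeR), and with the replicate letter as a block 1.56 (adjusted p = 0.056). DESeq2 gave no adjusted p for this gene or any other member. Without mRNA-Seq ISRIB replicate a, which leaves 1 mRNA library for ISRIB, the log2 difference was 2.09 for UCP2 and 0.76 for PTP4A1. These were the highest values with a library left out. Over all such omissions the difference ran from 0.83 to 2.09 for UCP2 and from 0.03 to 0.76 for PTP4A1.

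The mRNA results of this contrast depended on the same library. With all libraries, 0 of 10970 transcripts (0%) passed by edgeR, 1697 (15.5%) had an unadjusted p under 0.05, and DESeq2 called 86. None of the 8 members passed by edgeR, and 0 had an unadjusted p under 0.05. DESeq2 gave no adjusted p for any member here, so it is no second tool for them. Without ISRIB replicate a, 28.2% of transcripts passed and 5 of the 8 members did. PTP4A1 had 53.1 CPM in ISRIB replicate a and 88.7 in b, and 47.1 and 60.3 in Tm + ISRIB. Its log2 difference of -0.38 (SE 0.19) became -0.70 (adjusted p = 0.003, edgeR) without replicate a. UCP2 had 6.25 and 15.1 CPM in ISRIB and 5.8 and 7.67 in Tm + ISRIB, and its difference of -0.60 (SE 0.32) became -1.12 (adjusted p = 0.0041, edgeR). PNRC2, SAT1 and C19orf48 were higher in Tm + ISRIB without that library, by 0.29, 0.55 and 0.31 (adjusted p = 0.045, 0.042 and 0.05, edgeR). Without ISRIB replicate b instead, 0 transcripts passed, and the differences were 0.03 for PTP4A1, 0.13 for UCP2, -0.12 for PNRC2 and -0.06 for SAT1 (adjusted p = 0.99, 0.97, 0.95 and 0.99, edgeR). The differences of these 4 genes thus depended on which ISRIB replicate was used, and against replicate a alone no direction was resolved.

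In Tm + ISRIB against Tm, which asks what ISRIB does to stressed cells, RPFs share the Tm libraries with the choice of members and are given without a test. All 8 members had both Tm + ISRIB libraries below both Tm libraries, as did 27.2% of all transcripts, and in efficiency all 8 again did, as did 24.6%. A member chosen for being high in Tm is likely to be lower in any other treatment, so nothing is read from these counts. The sizes differed between genes. C19orf48 went from 11.1 and 11.7 RPF CPM in Tm to 1.02 and 1.24 in Tm + ISRIB (6 and 8 counts), a log2 difference of -3.30 (SE 0.36). SLC35A4 had 2.05 and 1.08 RPF CPM in Tm + ISRIB (12 and 7 counts), a difference of -2.43 (SE 0.38), and PTP4A1 a difference of -1.85 (SE 0.14). The smallest differences were -0.93 (SE 0.27) for BCL2L11, -1.05 (SE 0.47) for C7orf31, -1.07 (SE 0.09) for SAT1 and -1.12 (SE 0.17) for UCP2.

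The mRNA of Tm + ISRIB and Tm cells could be tested, because the choice used footprints. By edgeR 0 of 10970 transcripts (0%) passed, with 198 (1.8%) at an unadjusted p under 0.05, and DESeq2 called 0. Among the members 0 passed and 1, C7orf31, had an unadjusted p under 0.05. C7orf31 mRNA was at 4.73 and 3.91 CPM in Tm and 5.56 and 5.62 in Tm + ISRIB, a log2 difference of 0.39 (SE 0.17). PNRC2 mRNA was at 54.7 and 50.1 CPM in Tm + ISRIB, a difference of -0.01 (SE 0.11) from Tm, while its RPFs differed by -1.39 (SE 0.18). Against untreated cells its mRNA was higher in Tm + ISRIB by 0.56 (SE 0.11). PNRC2, BCL2L11, SAT1 and C19orf48 had both Tm + ISRIB mRNA libraries above both untreated ones, as did 31.1% of all transcripts.

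Efficiency in Tm + ISRIB beside untreated cells is given as description, since it shares the untreated libraries with the choice. In 3 members both Tm + ISRIB lysates were above both untreated lysates, as in 26% of all transcripts. UCP2, at 2.83 and 1.57, lay above its untreated values of 0.988 and 1.08 and below its Tm values, with a log2 difference of 1.03 (SE 0.37) from untreated cells. Its RPF CPM of 16.4 and 12.1 lay just above the untreated 11.8 and 9.6, a log2 difference of 0.42 (SE 0.18), while its mRNA was lower by 0.62 (SE 0.31). The others were PTP4A1, at 0.442 and 0.338 over 0.267 and 0.281, and BCL2L11, at 1.03 and 1.11 over 0.79 and 0.951. In 2 members both lysates were below, as in 25.8% of all transcripts. C19orf48 was at 0.0157 and 0.0181 under its untreated 0.0349 and 0.0362, a log2 difference of -1.04 (SE 0.42), and PNRC2 at 0.206 and 0.262 under 0.376 and 0.274, a difference of -0.45 (SE 0.22). SLC35A4, C7orf31 and SAT1 overlapped their untreated values.

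ISRIB alone against untreated cells shows what ISRIB does without Tm, and in RPFs it shares the untreated libraries with the choice. C19orf48 had 0.905 and 1.2 RPF CPM in ISRIB (4 and 7 counts), SLC35A4 0.905 and 1.55 (4 and 9 counts) and UCP2 7.02 and 7.4. These 3 members had both ISRIB libraries below both untreated ones, as did 15.9% of all transcripts, with log2 differences of -0.79 (SE 0.47), -0.69 (SE 0.47) and -0.55 (SE 0.21). The differences of the other 5 ranged from -0.14 for SAT1 to 0.52 for BCL2L11, whose ISRIB replicates at 9.05 and 4.47 CPM lay on both sides of the untreated 4.8. In efficiency, C19orf48 was at 0.0136 and 0.0221, below both untreated lysates, with a difference of -0.98 (SE 0.45). SLC35A4 was at 0.05 and 0.0849, with a difference of -0.81 (SE 0.44). Without mRNA-Seq ISRIB replicate a these were -0.82 and -0.81, and UCP2 moved from -0.53 (SE 0.42) to -1.07 (SE 0.31). The UCP2 difference ran from -1.07 to 0.20 as each library was left out in turn, so its direction was not settled.

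In mRNA, 126 transcripts (1.15%) passed in ISRIB against untreated cells, 93 higher and 33 lower, and 0 of the 8 members did by edgeR, with 2 at an unadjusted p under 0.05, as were 1584 of all transcripts (14.4%). PNRC2 had 56.7 and 43.1 mRNA CPM in ISRIB, both above its untreated 36.1 and 34.7, with a log2 difference of 0.50 (SE 0.12, adjusted p = 0.11, edgeR). DESeq2's Wald test gave it an adjusted p of 0.043 and the replicate letter as a block 0.052. Without ISRIB replicate a the difference was 0.28 (adjusted p = 0.14, edgeR). BCL2L11 mRNA was at 6.97 and 7.56 CPM in ISRIB and 5.35 and 5.04 in untreated cells, a difference of 0.48 (SE 0.17, adjusted p = 0.23, edgeR) that was 0.53 (adjusted p = 0.19) without replicate a. PTP4A1 and UCP2 mRNA, at -0.07 (SE 0.19) and -0.02 (SE 0.32), turned to 0.26 and 0.52 without that library (adjusted p = 0.26 and 0.19, edgeR), and SAT1 mRNA turned from 0.02 to -0.33 (adjusted p = 0.34). Without ISRIB replicate b, 905 transcripts passed and 3 members did, PNRC2 at 0.68, C19orf48 at 0.32 and PTP4A1 at -0.47 (adjusted p = 0.0032, 0.092 and 0.06, edgeR).

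Ordered by mean efficiency, Tm was the highest of the 4 treatments for all 8 members, separated from the next treatment by the ranges of the lysates, as in 11.2% of all transcripts. The members were chosen on these Tm footprints, so nothing is read from this count. Below Tm, 13 of the 16 pairs of neighboring treatments overlapped and 3 did not, while over all transcripts 28.4% of the neighboring pairs below the highest treatment did not overlap. The 3 pairs that did not were UCP2 in Tm + ISRIB over untreated, C19orf48 in untreated over ISRIB, and PTP4A1 in Tm + ISRIB (0.442 and 0.338) over ISRIB (0.333 and 0.243), the last by 1.02-fold and with the mRNA of ISRIB replicate a in the first ISRIB value. Levels per kb of counted sequence compare the members as counted, with the limit on isoforms given above. In untreated cells mRNA ran from 3.55 CPM per kb for C7orf31 to 180 for C19orf48, and RPFs from 0.851 for C7orf31 to 182 for SAT1. C19orf48 thus had the most message of the 8 per kb and, at 6.41 CPM per kb, the third lowest footprint level, while SAT1 had 25.9 CPM per kb of mRNA under the highest footprint level. For SAT1, PTP4A1, PNRC2 and C19orf48 the transcript identifier has another version in mRNA-Seq than in Ribo-Seq, with the same counted length.

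Across the 8 lysates, each member's log2 efficiency followed the mean of the other members, with Pearson's r from 0.81 for C7orf31 and BCL2L11 to 0.95 for PTP4A1 and SAT1. These values are descriptions, since all members were chosen for being high in the same 2 lysates. Likeness to the mean efficiency of the 8 was ranked over 1778 other transcripts with a symbol and at least 10 counts in every library. Only 1893 of the 10970 tested transcripts have a symbol, so most could not be ranked. The 5 most alike were ATF4 (r = 0.982), FARP2 (r = 0.980), DLX1 (r = 0.970), HOXD11 (r = 0.966) and ATF5 (r = 0.965), each over 8 lysates that share the members' libraries. ATF4 and ATF5 are transcription factors of the same stress response. Mean ATF4 efficiency was 0.0917 without treatment, 0.533 with Tm, 0.0718 with Tm + ISRIB and 0.0575 with ISRIB alone, and ATF5 efficiency was 0.43, 3.6, 0.626 and 0.417. In ISRIB replicate b alone, ATF4 was at 0.0597 and ATF5 at 0.302. FARP2, DLX1 and HOXD11 had the same shape at a smaller size, with HOXD11 at 1.2, 1.8, 1.08 and 1.05.

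Fixed lists of related genes were read in the contrast that did not choose the members. In RPFs of Tm + ISRIB against ISRIB, 0 of the 3 tested long-known targets ATF4, ATF5 and PPP1R15A passed (DDIT3 was not matched between the assays), with a median log2 difference of 0.21 beside 0.08 for the 8 members. The closest was ATF4 at 0.44 (SE 0.13, adjusted p = 0.11, edgeR). None of 3 other uORF-controlled mRNAs (IFRD1, PPP1R15B and EPRS), 7 tested genes of the eIF2 pathway and its early targets or 7 tested relatives of the members passed in RPFs, efficiency or mRNA of this contrast, nor in the mRNA of the other contrasts tested, with all libraries in the fit. Without mRNA-Seq ISRIB replicate a, 0 of these genes passed in efficiency and 5 passed in mRNA of Tm + ISRIB against ISRIB, where 28.2% of all transcripts did. They were ATF4 at 0.22, ODC1 at 0.31, EIF2B3 at 0.22, PPP1R15B at -0.19 and SLC35E2B at -0.40 on the log2 scale (adjusted p = 0.055, 0.0064, 0.066, 0.077 and 0.018, edgeR). In mRNA of ISRIB against untreated cells 1 passed without it, among 792 of all transcripts, ODC1 at -0.22 (adjusted p = 0.082, edgeR). The relatives, which include PTP4A2 and 5 transporters of the SLC35 family, had a median log2 RPF difference of 0.07 in this contrast and of -0.03 in Tm against untreated cells, where the lowest was at -0.64 and the highest at 0.16. The 8 members had a median of 1.52 there, which their choice fixes.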

How the data were processed

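Per the labels and the study's methods, HEK293T cells had 4 treatments with 2 replicates each in Ribo-Seq and mRNA-Seq. The authors deposited raw counts of reads over the coding sequence of UCSC transcripts, without normalization or pooling. The submitters' processing notes name hg19, Bowtie 1.0.0 and TopHat2; how reads shared by isoforms or gene copies were assigned was not given in the sources used here. Transcripts were joined between assays by identifier without version and equal counted length (19044 of 21520 in Ribo-Seq with a coding sequence). Counted lengths are 20 codons shorter than the annotated coding sequences.

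filterByExpr with a minimum count of 10 in both assays kept 10970 transcripts. Changes were fitted with edgeR 4.0.16 (R 4.3.3; TMM, glmQLFit, glmQLFTest) over all 8 libraries of an assay, and efficiency over 16 as the interaction of assay and treatment. P-values were adjusted by Benjamini-Hochberg over all tested transcripts, with a threshold of 0.1, and standard errors are the absolute log2 change over the square root of F. All changes are relative to the other transcripts. An exact permutation test of 1 value in 2 libraries against 2 has a smallest p of 0.333. On counts simulated from these libraries, the fits were tested before use. The simulation gave all libraries the same spread and held no atypical library, so it does not bear on the ISRIB mRNA replicates. DESeq2 1.42.0, other scalings, filters and blocks were alternatives.

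The members and gene lists were chosen with earlier results of these data known. The members were chosen on RPFs of Tm and untreated cells, so contrasts that use those Ribo-Seq libraries carry no test of the members. Named genes are the 8 members, members of fixed lists that passed in any fit shown or were closest, and the 5 transcripts most correlated in efficiency. CPS1 and ZNF672 were named for their place at the threshold after values were seen. Symbols, for 1893 of the tested transcripts, come from the study's tables, which gave no values here. Upstream AUGs come from GENCODE v29 (GRCh38) and are not coordinates of the authors' files. Figures were drawn with matplotlib 3.10.9.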

Additional observations from a re-analysis of the deposited data

How the results depend on the processing

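No result changed direction while past the threshold. In RPFs of Tm + ISRIB against ISRIB, 147 transcripts passed, but 61 by DESeq2's Wald test, 320 with no filter on low counts, 520 with only the 2 treatments compared, and 0 to 160 with a replicate left out, where 0 to 1 member passed. DESeq2 gave no adjusted p here for UCP2, PNRC2, C19orf48, BCL2L11, SLC35A4, PTP4A1 and C7orf31, so the UCP2 call has no second tool. It gave none for any member in efficiency and mRNA of this contrast. In mRNA of ISRIB against untreated it gave none for UCP2, BCL2L11, SLC35A4, C7orf31 and SAT1. In efficiency, 129 passed, but 260 with no filter, 0 with only the 2 treatments compared and 0 to 1855 with a replicate left out (0 to 2 members). Here 1 member, UCP2, passed with no filter, with scaling by total counts and with either replicate block. The replicate block by letter gave 285 transcripts and the block by lysate 192. In mRNA of Tm + ISRIB against ISRIB, 0 passed, but 86 by DESeq2 and 0 to 3095 with a replicate left out (0 to 5 members). In mRNA of ISRIB against untreated, 126 passed, but 214 with no filter, 0 with only the 2 treatments compared and 0 to 905 with a replicate left out (0 to 3 members), and 1 member, PNRC2, passed by DESeq2, with no filter and with the replicate block. Apart from the fewer libraries in some fits, the cause was not tested.

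Same-letter libraries did not deviate together throughout (r = -0.026 in Ribo-Seq and 0.413 in mRNA-Seq for Tm + ISRIB against ISRIB, -0.114 and 0.0527 in the other mRNA contrasts), and the 2 libraries of a lysate had r from -0.0552 to 0.048, so the pairing rests on the methods alone. The replicate block changed no other member's call.

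Differences near 0 crossed it. With total counts, the RPF differences of BCL2L11 and PNRC2 in Tm + ISRIB against ISRIB were 0.00 and 0.01. With a replicate left out, RPF differences in this contrast ran from -0.50 to 0.52 for BCL2L11, -0.08 to 0.32 for C19orf48, -0.61 to 1.49 for C7orf31, -0.14 to 0.08 for PNRC2, -0.06 to 0.23 for PTP4A1 and -0.22 to 0.76 for SLC35A4. Efficiency differences ran from -0.22 to 0.80 for BCL2L11, -0.23 to 0.18 for C19orf48, -0.33 to 1.79 for C7orf31, -0.31 to 0.10 for PNRC2, -0.31 to 0.30 for SAT1 and -0.06 to 0.93 for SLC35A4. The mRNA differences ran from -0.12 to 0.29 for PNRC2, -0.70 to 0.03 for PTP4A1, -0.06 to 0.55 for SAT1 and -1.12 to 0.13 for UCP2. In mRNA of Tm + ISRIB against Tm they ran from -0.07 to 0.05 for PNRC2, -0.06 to 0.30 for PTP4A1, -0.06 to 0.17 for SAT1 and -0.07 to 0.20 for SLC35A4, and in ISRIB against untreated from -0.47 to 0.26 for PTP4A1, -0.33 to 0.27 for SAT1 and -0.75 to 0.52 for UCP2. SLC35A4, C7orf31 and C19orf48, with as few as 3 RPF counts in a library, are limited by depth.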
